A study of Mus musculus with 6 samples.

Results

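The 9 genes described here encode the enzymes and regulators that set the phosphorylation of the translation factor eIF2 alpha, the entry point of the integrated stress response. They were picked by symbol, as 9 of the 26214 gene symbols listed in the count files, with earlier results of these data known. They are the kinases Eif2ak1 (HRI), Eif2ak2 (PKR), Eif2ak3 (PERK) and Eif2ak4 (GCN2), the phosphatase regulators Ppp1r15a (GADD34) and Ppp1r15b (CReP), the mitochondrial protease gene Oma1, the substrate gene Eif2s1 and the exchange factor gene Eif2b5. Gene expression had been measured by RNA-seq in an immortalized line of mouse brown preadipocytes, precursors of heat-producing fat cells, that were differentiated with insulin, the thyroid hormone T3, methylisobutylxanthine, dexamethasone and indomethacin. On day 7 of differentiation one group was given rotenone at 100 nM for 16 h, which blocks complex I of the respiratory chain, and the other the solvent DMSO. The cells of both groups came from the same kind of immortalized culture in dishes, and no animal of either group is described.

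Phosphorylated eIF2 alpha holds on to its exchange factor eIF2B, so that less initiator tRNA is delivered to ribosomes and general protein synthesis drops, while a few messages such as that of the transcription factor ATF4 are translated more. Each kinase answers to another input: HRI to lack of heme and, through the OMA1 protease and its substrate DELE1, to mitochondrial stress, PKR to viral-type RNA duplexes, PERK to misfolded protein in the endoplasmic reticulum, and GCN2 to uncharged tRNA and stalled ribosomes. The phosphate is removed by protein phosphatase 1 when it is guided to eIF2 alpha by CReP, which is made all the time, or by GADD34, whose gene is switched on by the stress response itself and so closes a negative feedback loop. These enzymes act through their activity, which transcript counts do not measure.

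The serine that all 4 kinases phosphorylate and the motif by which GADD34 binds protein phosphatase 1 are shown here. The serine is the site on which both kinases and phosphatase act, and the motif ties the regulator to the phosphatase. The sequences are stretches of coding sequence read 5′ to 3′ from GENCODE M21 transcripts on GRCm38. In Eif2s1 (chromosome 12) codons 45 to 60 of 315 are shown, with the serine codon in capitals. This is codon 52 counted from the initiator methionine, or residue 51 in the usual numbering without it. In Ppp1r15a (chromosome 7) codons 542 to 559 of 657 are shown. Capitals there mark the 4 codons for lysine, valine, any residue and phenylalanine, a pattern found once in its coding sequence.
Eif2s1: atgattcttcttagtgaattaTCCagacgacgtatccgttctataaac
Ppp1r15a: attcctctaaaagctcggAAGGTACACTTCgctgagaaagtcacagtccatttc

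Each group had 3 deposited files. The 3 rotenone files held the same count for every gene, thus differed by less than sampling noise, and were counted as 1 sample, so 3 DMSO libraries were compared with 1 rotenone library. The spread therefore comes from the DMSO libraries only, and nothing beyond the word independent in the design text says whether these were separate cultures, so the p-values may measure technical spread. Total counts were 26085061 to 29194179 in DMSO and 21611589 with rotenone. Levels are CPM, the count of a gene relative to all counts of the library, on library sizes scaled by the TMM method. The summed level of 8 general adipocyte markers was 10282 to 11310 CPM in DMSO and 9075 CPM with rotenone, of which the lipid carrier gene Fabp4 made up 5306 CPM. Of these markers 5 were called lower and 0 higher, among them the transcription factor gene Cebpa, at 558 ± 24 CPM (SD, n = 3) in DMSO and 112 CPM with rotenone, and the lipase gene Lipe, at 911 ± 35 and 248 CPM. The sum of 8 brown adipocyte markers was 1092 to 1255 CPM in DMSO and 920 CPM with rotenone, of which Cidea made up 673 CPM. Of the 7 tested, 2 were called higher and 3 lower. Called higher were Cox8b (64.3 ± 7.2 and 79.1 CPM) and Elovl3 (26.2 ± 0.7 and 39.6 CPM). Cidea (704 ± 64 and 673 CPM) and Ppargc1a (49.9 ± 2.0 and 47.3 CPM) were not called. The 3 called lower were Prdm16 (36.6 ± 2.8 and 8.38 CPM), Kcnk3 (215 ± 16 and 54.4 CPM) and Ucp1, which encodes the heat-producing uncoupling protein (74.3, 72.7 and 54.7 CPM in DMSO and 18.5 CPM with rotenone). Dio2 had too few counts for the test. Summed levels of 10 preadipocyte and fibroblast markers were 1860 to 2088 CPM in DMSO and 4534 CPM with rotenone. Of the latter the collagen genes Col1a1, Col1a2 and Col3a1 made up 2121, 1666 and 477 CPM. Of the 9 tested, 6 were called higher and 1 lower, Pdgfra (19.5 ± 1.1 and 9.07 CPM). The 6 smooth muscle markers summed to 327 to 368 CPM and 1629 CPM. With rotenone Acta2 and Tagln made up 852 and 654 CPM of this. Of these 6 markers 4 were called higher and 1 lower, Des (50.9 ± 1.1 and 41.7 CPM). Summed macrophage markers were 2.67 to 3.59 CPM in DMSO and 15.7 CPM with rotenone, of which Cd68 made up 15.5 CPM, while Adgre1 and Ptprc had 0 counts in every library. Endothelial markers summed to 5.10 to 5.28 CPM and 8.38 CPM, of which Egfl7 made up 7.34 CPM with rotenone, and Emcn had 0 counts. Skeletal muscle markers summed to 2.03 to 3.00 CPM and 7.49 CPM, of which Acta1 made up 6.65 CPM with rotenone, while Tnnc1 was called lower (2.19 ± 0.55 and 0.84 CPM) and Myod1 and Myh1 had 0 counts. The part of these marker shifts in the results that follow was not tested, and in bulk RNA fewer cells of a type cannot be told apart from less RNA per cell.

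The comparison asked how inhibition of complex I changes gene expression in differentiated brown adipocytes. Among the 9 genes, Ppp1r15a rose 4.38-fold and Eif2s1 1.42-fold, whereas the kinase genes Eif2ak2, Eif2ak3 and Eif2ak1 were lower. Eif2ak4, Ppp1r15b, Oma1 and Eif2b5 did not pass the threshold. All 9 had enough counts to be tested with edgeR's quasi-likelihood test, at a Benjamini-Hochberg adjusted p under 0.05 over 14709 genes. Thus 2 of 9 were called higher and 3 of 9 lower, against a background of 27.6% of all genes tested called higher and 28.5% lower. The members' share was near this background, so it is not a result about the group. Their median log2 fold change was 0.00, against -0.04 over all genes tested. A coefficient of variation of 20% for every gene, here named the wider spread, was also applied in a likelihood ratio test. The value common to all genes was 6.9%, but the main test allowed each gene a spread of its own. For genes that vary by more than 20% among DMSO libraries the assumed spread is narrower. Under the 20% setting Ppp1r15a was the 1 member called higher and Eif2ak2 the 1 called lower, beside 9.57% and 14.0% of all genes. The same single calls in each direction were made when the null was a change of up to 1.5-fold, beside 8.18% and 11.8% of all genes. The rotenone value lay above all 3 DMSO values for 4 members and below them for 4, as it did for 41.5% and 44.7% of all genes tested.

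**Figure D1:**
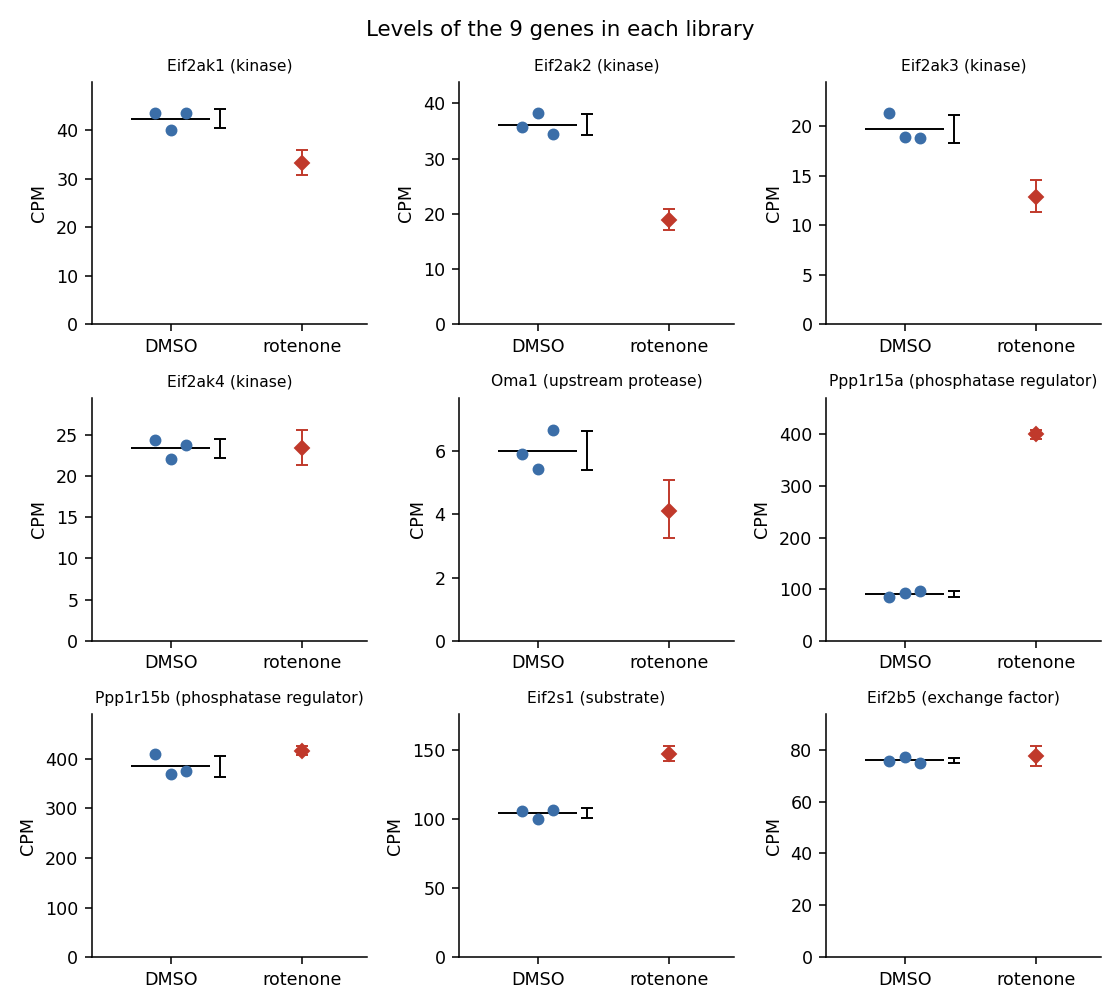
Levels of the 9 genes in CPM. Blue points are the 3 DMSO libraries in order of replicate number, the horizontal line is their mean and the black bar 1 SD; the red diamond is the rotenone library with its 95% exact Poisson interval, which covers counting error only. Ppp1r15a stands at 400 CPM with rotenone against 84.8 to 97.2 CPM in DMSO, and Eif2ak4 lies inside its DMSO range.

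Eif2ak2 encodes PKR, which is activated by RNA duplexes and whose gene is itself induced by interferon (chromosome 17, 78852564 to 78882573, minus strand, GRCm38). Its level was 35.8, 38.2 and 34.5 CPM in DMSO replicates 1, 2 and 3 and 18.9 CPM with rotenone, from 384 counts with a 95% exact Poisson interval of 17.1 to 20.9 CPM. The rotenone library stood below all DMSO libraries. The log2 fold change was -0.94 ± 0.12 (SE), with a Benjamini-Hochberg adjusted p of 1.95e-06 by edgeR's quasi-likelihood test, and it stayed past the threshold under the wider spread (adjusted p = 0.0431). Of all genes tested, 2437 had a lower log2 fold change.

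Eif2ak3 encodes PERK, the kinase in the membrane of the endoplasmic reticulum (chromosome 6, 70844515 to 70905245, plus strand). It was measured at 21.3, 18.9 and 18.8 CPM in DMSO and 12.9 CPM with rotenone, from 261 counts. Groups did not overlap, and DMSO replicate 1 was the highest. It fell by 0.61 ± 0.15 on the log2 scale (edgeR's quasi-likelihood test, Benjamini-Hochberg adjusted p = 0.00173), a call lost under the wider spread (adjusted p = 0.213).

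Eif2ak1 encodes HRI, the heme-regulated kinase (chromosome 5, 143817788 to 143904251, plus strand). Values were 43.5, 40.0 and 43.4 CPM in DMSO and 33.3 CPM with rotenone, from 676 counts. The rotenone value was the lowest, and its fall of 0.35 ± 0.10 on the log2 scale was the smallest among the kinases called (edgeR's quasi-likelihood test, Benjamini-Hochberg adjusted p = 0.00846; adjusted p = 0.511 under the wider spread). Exons of Aimp2 and Ankrd61 on the opposite strand overlap those of Eif2ak1 in the annotation. Opposite-strand exons of other annotated genes also overlap those of Eif2ak2, Eif2ak3, Ppp1r15b and, over a short stretch, Ppp1r15a. The part of such overlaps in the values of these genes was not tested. The strand setting of the counting was not given in the sources used here, so reads from these stretches cannot be told apart. Aimp2, a scaffold protein of the tRNA synthetase complex, gave a log2 fold change of 0.16 ± 0.12 and Ankrd61 0.59 ± 0.29, and neither passed the threshold.

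Eif2ak4 encodes GCN2, the sensor of amino acid shortage (chromosome 2, 118388618 to 118475234, plus strand). It stood at 24.3, 22.0 and 23.7 CPM in DMSO and 23.4 CPM with rotenone, from 475 counts. The rotenone library lay between DMSO libraries. The log2 fold change was 0.00 ± 0.12 (edgeR's quasi-likelihood test, Benjamini-Hochberg adjusted p = 0.982), and its sign turned with the scaling (-0.12 with library size scaling).

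Scaled by the length of the longest annotated transcript, kinase levels in DMSO ran in the order Eif2ak1 (9.78 ± 0.45 CPM per kb, SD, n = 3), Eif2ak2 (8.39 ± 0.43), Eif2ak4 (4.41 ± 0.22) and Eif2ak3 (4.36 ± 0.31). Eif2ak4 and Eif2ak3 overlapped, while the other neighbours in this order did not. With the exon union as length the DMSO means were 7.46, 7.08, 3.13 and 3.26 CPM per kb, so Eif2ak3 came before Eif2ak4, and Eif2ak2 was above Eif2ak1 in DMSO replicate 2. With rotenone the length-scaled levels were 7.70, 4.39, 4.42 and 2.85 CPM per kb in that order of genes. Summed over the 4 kinases the length-scaled level was 27.7, 26.5 and 26.7 CPM per kb in DMSO and 19.4 CPM per kb with rotenone. PKR's share of this sum was 30.0%, 33.5% and 30.0% in DMSO and 22.7% with rotenone, and that of GCN2 16.6%, 15.7% and 16.8% against 22.8%. HRI made up 35.0% to 37.6% in DMSO and 39.8% with rotenone, and PERK 15.6% to 17.0% and 14.7%. These shares do not depend on the scaling between libraries, and they are descriptions, with no test, since there was 1 rotenone library.

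Ppp1r15a encodes GADD34, the stress-induced regulator (chromosome 7, 45522916 to 45526268, minus strand). Its level was 84.8, 91.7 and 97.2 CPM in DMSO and 400 CPM with rotenone, from 8115 counts. The rotenone value was above every DMSO library by far more than their spread. The log2 fold change was 2.13 ± 0.07 (edgeR's quasi-likelihood test, Benjamini-Hochberg adjusted p = 1.35e-14; adjusted p = 4.23e-10 under the wider spread), and 140 of 14709 genes tested had a larger one. Over the alternatives it ranged from 2.01 to 2.18.

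Ppp1r15b encodes CReP, the constitutive regulator (chromosome 1, 133131143 to 133139783, plus strand). It was measured at 409, 368 and 376 CPM in DMSO and 417 CPM with rotenone, from 8454 counts. The rotenone value lay just above DMSO replicate 1, the highest control. Its log2 fold change of 0.12 ± 0.07 did not pass (edgeR's quasi-likelihood test, Benjamini-Hochberg adjusted p = 0.17). Without DMSO replicate 1 it was 0.17 and passed (adjusted p = 0.0178), and with library size scaling it was -0.0049.

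In DMSO there were thus fewer reads of Ppp1r15a than of Ppp1r15b, with count ratios of 0.207, 0.249 and 0.259 in replicates 1, 2 and 3. With rotenone the count ratio was 0.960. Per length of the longest transcript, the ratio of Ppp1r15a to Ppp1r15b was 0.412, 0.496 and 0.515 in DMSO and 1.91 with rotenone, so the order of the length-scaled levels turned. Taking the union of all annotated exons as length, the ratio was 0.454 ± 0.052 (SD, n = 3) in DMSO and 1.83 with rotenone. On the log2 scale the count ratio was -2.08 ± 0.17 (SD, n = 3) in DMSO and -0.06 with rotenone. The ratio is taken within each library and does not depend on the scaling between them. Summed over both regulators, the length-scaled level was 98.5 to 103 CPM per kb in DMSO and 217 CPM per kb with rotenone.

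**Figure D2:**
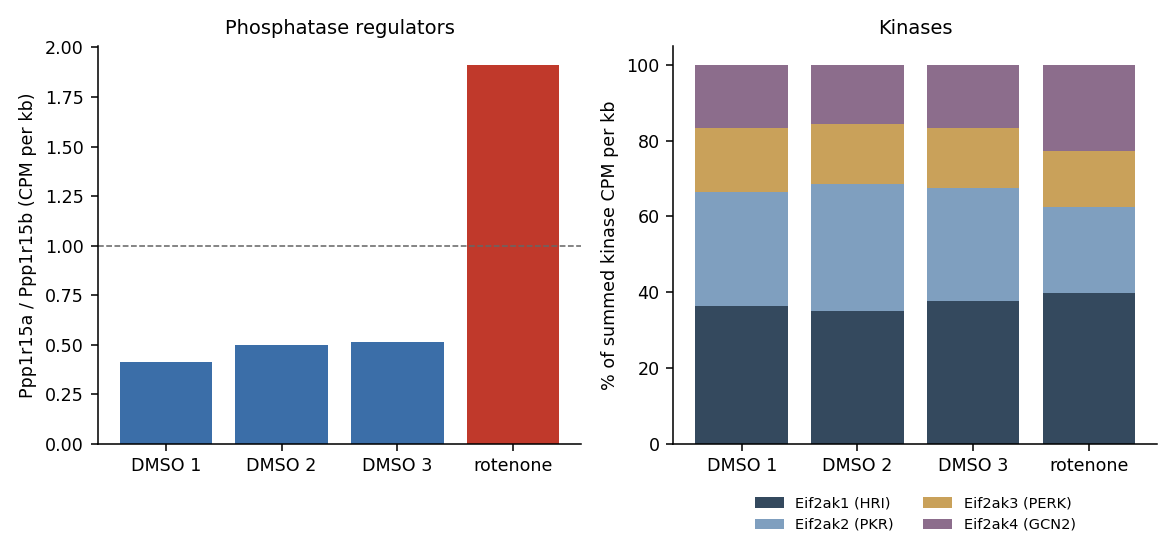
Left, ratio of Ppp1r15a to Ppp1r15b in CPM per kb of the longest transcript in each library, with a dashed line at equal levels; right, share of each kinase in the summed length-scaled level of the 4 kinases, in percent. The ratio is 0.412 to 0.515 in the DMSO libraries and 1.91 with rotenone, and the share of Eif2ak2 is 22.7% with rotenone against 30.0% to 33.5%.

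Oma1 encodes a protease of the inner mitochondrial membrane that is activated when the membrane loses its potential and then cuts DELE1 and OPA1 (chromosome 4, 103313812 to 103371868, plus strand). Oma1 had the fewest counts of the 9 genes. Its level was 5.91, 5.43 and 6.66 CPM in DMSO and 4.09 CPM with rotenone. The rotenone value rests on 83 counts, with a 95% exact Poisson interval of 3.26 to 5.07 CPM that lies just under the lowest DMSO value. The log2 fold change of -0.55 ± 0.25 did not pass the threshold (edgeR's quasi-likelihood test, Benjamini-Hochberg adjusted p = 0.0677). It passed with upper-quartile scaling (-0.60, adjusted p = 0.0495) and with library size scaling (-0.67, adjusted p = 0.0284).

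Eif2s1 encodes eIF2 alpha itself (chromosome 12, 78861819 to 78887010, plus strand). Levels were 106, 100 and 107 CPM in DMSO and 148 CPM with rotenone, from 2996 counts. All DMSO libraries were lower. The log2 fold change was 0.50 ± 0.07 (edgeR's quasi-likelihood test, Benjamini-Hochberg adjusted p = 7.61e-06), a call lost under the wider spread (adjusted p = 0.272).

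Eif2b5 encodes the catalytic epsilon subunit of eIF2B, the exchange factor that phosphorylated eIF2 alpha inhibits (chromosome 16, 20498817 to 20509323, plus strand). It was measured at 75.8, 77.0 and 74.8 CPM in DMSO and 77.4 CPM with rotenone, from 1571 counts. The rotenone value exceeded the highest control by less than its counting error. A log2 fold change of 0.03 ± 0.08 was found (edgeR's quasi-likelihood test, Benjamini-Hochberg adjusted p = 0.766), which turned to -0.09 with library size scaling.

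**Figure D3:**
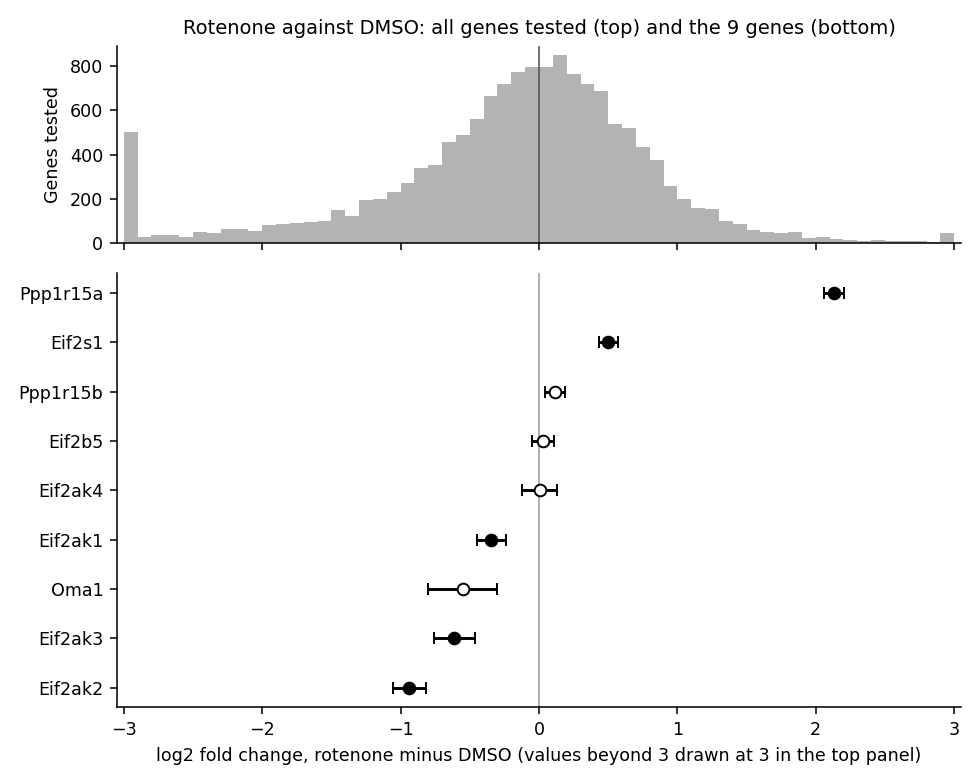
Top, histogram of log2 fold changes (rotenone minus DMSO) of the 14709 genes tested, with values beyond 3 drawn at 3; bottom, the 9 genes with their log2 fold change ± SE, filled where the adjusted p was under 0.05. Ppp1r15a lies at 2.13 in the upper tail of the histogram and the other 8 genes between -0.94 and 0.50.

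Over all 9 genes the length-scaled level in DMSO was highest for Ppp1r15b (68.7 ± 3.9 CPM per kb, SD, n = 3), above that of 93.2% of the genes tested. Ppp1r15a (32.5 ± 2.2), Eif2s1 (30.6 ± 1.1) and Eif2b5 (29.7 ± 0.4) followed, each overlapping its neighbour, and then the kinases. Oma1 was lowest, at 3.13 ± 0.32 CPM per kb. With rotenone Ppp1r15a was highest at 142 CPM per kb, ahead of Ppp1r15b at 74.5 and Eif2s1 at 43.3. With the exon union as length, Eif2s1 stood at 21.1 CPM per kb in DMSO, under Eif2b5 at 29.2. Transcript length itself moved with the comparison. The median log2 fold change was 0.24 in the shortest of 10 length classes and -0.27 in the longest. Relative to genes of like length, Ppp1r15a was at 2.15, Eif2s1 at 0.53, Ppp1r15b at 0.335 and Eif2ak4 at 0.22, while Eif2ak1 was at -0.25, Eif2ak3 at -0.52, Oma1 at -0.67 and Eif2ak2 at -0.84. The part of length in these results was not tested further.

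Genes whose 4 log2 CPM values, centred on their mean, lay nearest by Euclidean distance were looked up for 3 members among the 10876 genes averaging 5 CPM or more. Those nearest to Ppp1r15a were Stambpl1, H1f2 and Zbtb20, at distances of 0.0574, 0.123 and 0.123. Nearest to Eif2ak1 were Ggta1, Srsf9 and Gas2l3, at 0.0086 to 0.0168, and nearest to Oma1 were Hdac8, Itch and Rnf128, at 0.0511 to 0.0584. These distances rest on 4 libraries, of which 1 is a rotenone sample, and are a description.

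Promoters are shown for the member that rose most and for the 2 kinase genes that fell most, since these differ most between the groups. Windows run from 250 bases before to 50 after the start in the RefSeq promoter table (GRCm38.p6). Found there were 8 of the 9 members, with 9 entries. Ppp1r15b had no entry, so its promoter was not searched. Motifs searched on both strands were TGACGTCA (the cAMP response element, a site for ATF and CREB factors), TGATGNAA (a C/EBP-ATF element of ATF4 target genes), GAAANNGAA (a core of interferon response elements) and CCAAT (the box bound by NF-Y). TGACGTCA reads the same on both strands, and none of the 4 contains another. They were present in 1.79%, 3.97%, 8.56% and 37.4% of 32851 promoter windows. A match is a description of letters and not a binding site.

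The window of Ppp1r15a (chr7:45526219-45526518, minus strand) held TGACGTCA at bases -12 to -5 before the start, in capitals, and no other member's window held it. It also held GAAANNGAA once, outside the capitals. That of Eif2ak2 (chr17:78882523-78882822, minus strand) held GAAANNGAA at 2 overlapping places, 19 to 27 and 25 to 33 bases into the transcript, in capitals. Eif2s1 also held it once, and the windows of the other members did not. The window of Eif2ak3 (chr6:70844265-70844564, plus strand) held 6 CCAAT boxes, 4 on the plus and 2 on the minus strand (there read as ATTGG), in capitals, a number reached by 26 of the 32851 windows. Eif2ak1 and Eif2b5 also held CCAAT, at -88 to -84 and -164 to -160. TGATGNAA was in none of the members' windows.
Ppp1r15a: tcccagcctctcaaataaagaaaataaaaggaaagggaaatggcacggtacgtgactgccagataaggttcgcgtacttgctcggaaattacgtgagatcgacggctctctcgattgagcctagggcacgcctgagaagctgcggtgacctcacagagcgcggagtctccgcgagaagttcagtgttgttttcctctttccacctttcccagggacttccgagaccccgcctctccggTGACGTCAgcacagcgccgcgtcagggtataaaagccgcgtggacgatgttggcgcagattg
Eif2ak2: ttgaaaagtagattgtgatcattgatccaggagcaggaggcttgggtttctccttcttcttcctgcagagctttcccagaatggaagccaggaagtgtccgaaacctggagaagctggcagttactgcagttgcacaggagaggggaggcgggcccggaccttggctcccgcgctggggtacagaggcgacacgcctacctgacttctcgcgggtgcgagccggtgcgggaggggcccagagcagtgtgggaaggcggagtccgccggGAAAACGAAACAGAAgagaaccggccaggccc
Eif2ak3: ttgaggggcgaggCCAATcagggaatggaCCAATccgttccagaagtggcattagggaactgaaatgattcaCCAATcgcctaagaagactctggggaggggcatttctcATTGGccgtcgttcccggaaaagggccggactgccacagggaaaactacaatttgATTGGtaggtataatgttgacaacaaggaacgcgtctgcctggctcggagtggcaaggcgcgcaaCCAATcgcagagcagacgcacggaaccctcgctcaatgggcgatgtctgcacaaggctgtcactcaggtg

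Of 8 eIF2 subunits and partners, 4 were called higher and 0 lower (1 and 0 under the wider spread), and the median log2 fold change was 0.17 beside -0.04 over all genes tested. Here and in the lists that follow, the shares over all genes tested were 27.6% called higher and 28.5% lower. Bzw2, which mimics eIF5 and binds eIF2, rose by 1.00 ± 0.08, with 45.9 ± 2.4 CPM (SD, n = 3) in DMSO and 91.9 CPM with rotenone. Eif2s2, the beta subunit, rose by 0.67 ± 0.07 and Bzw1 by 0.20 ± 0.07, beside Eif2s1. The Bzw1 call was lost with upper-quartile and library size scaling, which left 3 called higher. The count called lower was 1 with these scalings and without DMSO replicate 3. Of the gamma subunit genes, which are near-identical copies on the X and Y chromosomes with an uncertain division of reads, Eif2s3x gave 0.09 and Eif2s3y -0.03, and neither passed.

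Of the 5 eIF2B subunits, 3 were called higher and 0 lower (1 and 0 under the wider spread), and the median was 0.56. The gamma subunit gene Eif2b3, partner of the epsilon subunit in the catalytic part, rose by 0.87 ± 0.12, with 17.3 ± 0.7 CPM (SD, n = 3) in DMSO and 31.6 CPM with rotenone. Regulatory subunit genes Eif2b2 (beta) and Eif2b1 (alpha) rose by 0.75 ± 0.12 and 0.56 ± 0.10. Eif2b4, the delta subunit, stood at 0.00 beside Eif2b5 at 0.03, and neither passed.

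Of 6 partners of the eIF2 alpha phosphatase, 5 were called higher and 0 lower (2 and 0 under the wider spread), and the median was 0.35. The actin genes Actg1 and Actb, whose monomeric product joins the GADD34 and CReP complexes, rose by 1.60 ± 0.06 and 1.02 ± 0.07. In the same library 4 of 6 smooth muscle markers and 6 of 9 preadipocyte and fibroblast markers tested were called higher and 1 of each lower, and their part in the actin values was not tested. The adaptor gene Nck1 rose by 0.40 ± 0.12 and the catalytic subunit gene Ppp1cc by 0.30 ± 0.07, with 164 ± 1.8 CPM (SD, n = 3) in DMSO and 201 CPM with rotenone.

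Of 13 genes measured of the OMA1 relay and its inner membrane partners, 9 were called higher and 2 lower (2 and 0 under the wider spread), and the median was 0.58. Htra2, a protease of the intermembrane space, rose by 0.84 ± 0.08, Dnajc19, an inner membrane co-chaperone, by 0.83 ± 0.08 and the prohibitin gene Phb2 by 0.76 ± 0.06. Pink1, the kinase that marks damaged mitochondria, fell by 0.89 ± 0.09, with 97.1 ± 4.8 CPM (SD, n = 3) in DMSO and 52.3 CPM with rotenone. Dele1, named for its role with its values known, was at 39.2, 43.0 and 37.4 CPM in DMSO and 65.2 CPM with rotenone, a log2 fold change of 0.71 ± 0.10 (edgeR's quasi-likelihood test, Benjamini-Hochberg adjusted p = 4.08e-06; adjusted p = 0.0967 under the wider spread). The 3 genes of the OMA1, DELE1 and HRI relay thus gave -0.55, 0.71 and -0.35, of which the last 2 passed.

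Of 10 PERK regulators and other ER stress genes, 8 were called higher and 1 lower (3 and 0 under the wider spread), and the median was 0.59. Without DMSO replicate 1 the count called lower was 2. Hspa5, the chaperone BiP that holds PERK inactive, rose by 1.70 ± 0.06 and the chaperone gene Hyou1 by 1.39 ± 0.08. Genes of the parallel sensors Atf6 and Atf6b rose by 0.84 ± 0.07 and 0.78 ± 0.11. Levels of Atf6 were 81.9 ± 3.1 CPM (SD, n = 3) in DMSO and 146 CPM with rotenone, and those of Atf6b 23.0 ± 0.2 and 39.6 CPM. The sensor gene Ern1 rose by 0.43 ± 0.12, while the PERK gene fell. The gene of this list called lower in the main test was Xbp1, at -0.48 ± 0.08 (127 ± 9.0 and 90.8 CPM). Under the wider spread the calls of Atf6b, Ern1, Xbp1 and the PERK gene were lost. Dnajc3, an inhibitor of PERK and PKR, was at -0.22 and did not pass.

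Of 6 PKR regulators, 2 were called higher and 2 lower (0 and 0 under the wider spread), and the median was -0.03. These counts are near the shares over all genes tested and are no result about PKR regulators as a group. The count called lower was 1 without DMSO replicate 3 and with DESeq2. Tarbp2, an inhibitor of PKR, rose by 0.57 ± 0.10, whereas Prkra, its activator PACT, fell by 0.44 ± 0.10. The duplex-binding protein genes Stau1 and Stau2 gave 0.40 ± 0.07 and -0.32 ± 0.11, the latter call lost with DESeq2 (adjusted p = 0.106). Of 19 interferon-stimulated genes tested, 3 were called higher and 0 lower, both below the shares over all genes tested, with a median of 0.65. Oas2, Mx2 and Ddx58 gave 1.77 ± 0.55, 1.13 ± 0.33 and 0.38 ± 0.13. The DMSO libraries were far apart in these genes: the summed level of 20 genes was 478 to 716 CPM in DMSO and 943 CPM with rotenone. The count called higher was 12 without DMSO replicate 1, 11 without DMSO replicate 2 and 10 with limma-voom. With the coefficient of variation of 20% it was 7. At an adjusted p under 0.01 it was 1, and in the test against 1.5-fold 0. DMSO libraries varied by more than 20% in some of these genes, so for them the 20% setting was not a wider spread. The count called lower was 1 without DMSO replicate 1 or 3, without a filter, and with upper-quartile or library size scaling. Eif2ak2, whose product belongs to the same induced class, was lower with rotenone in each of these fits.

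Of 6 GCN2 regulators measured, 4 were called higher and 1 lower (0 and 0 under the wider spread), and the median was 0.57. The ribosomal stalk genes Rplp1, Rplp0 and Rplp2, whose proteins activate GCN2, rose by 0.80 ± 0.07, 0.72 ± 0.07 and 0.60 ± 0.06. Impact, an inhibitor of GCN2, rose by 0.54 ± 0.13. Of 11 genes of heme synthesis and breakdown, the pathway HRI senses, 2 were called higher and 1 lower (0 and 0 under the wider spread), and the median was -0.02. These counts are below the shares over all genes tested. The count called lower was 2 without DMSO replicate 1 or 3, with limma-voom, with upper-quartile scaling and with no filter, and 3 with library size scaling. Alas1, the first enzyme of the pathway, rose by 0.28 ± 0.07, while Urod fell by 0.51 ± 0.09.

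Downstream, of 28 genes measured in the list of ATF4 and CHOP targets, 21 were called higher and 3 lower (16 and 1 under the wider spread), and the median was 1.03. Counted among the 28 were Atf4 and Ddit3, the genes of ATF4 and CHOP themselves, both called higher at 0.63 and 1.26. Called lower were Sesn2, Aldh1l2 and Vldlr, at -1.16, -0.74 and -0.47. Atf5, Cebpg, Cebpb and Chac1 did not pass, at 0.05, 0.10, 0.43 and -0.64. Chac1 was called lower with DESeq2. More genes of this list were called lower with DESeq2, with limma-voom, without a filter and without DMSO replicate 1. Fgf21, Atf3, Gdf15 and the amino acid transporter gene Slc7a5 gave 2.87, 2.83, 2.51 and 1.78. Of these Atf3 went from 14.8 ± 2.1 CPM (SD, n = 3) to 105 CPM and Slc7a5 from 46.6 ± 2.9 to 160 CPM. Ppp1r15a, a target of the same factors, had a log2 fold change between those of Gdf15 and Slc7a5.

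**Figure D4:**
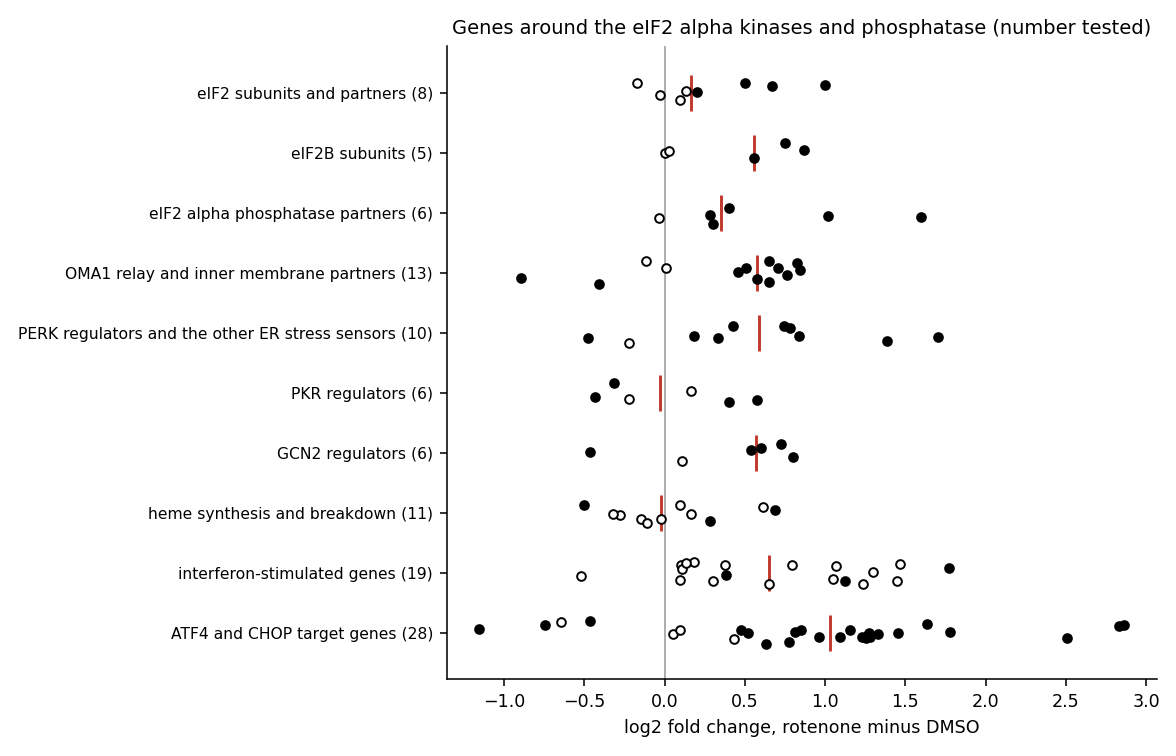
Log2 fold changes (rotenone minus DMSO) of the genes of the 10 pathway lists, marker lists left out, with the number tested in brackets; filled points had an adjusted p under 0.05, open points did not, red bars are list medians, and the vertical scatter within a list carries no value. Medians of these pathway lists run from -0.03 for PKR regulators to 1.03 for ATF4 and CHOP target genes.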

How the data were processed

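RNA-seq libraries of DMSO-treated and rotenone-treated brown adipocytes were used, grouped by the sample titles. The deposited files hold raw read counts per gene symbol, as deposited by the authors; TopHat2 and mm10 are named in the submitters' processing notes, with no version. The counting program, annotation, strand setting and treatment of multi-mapped reads were not given in the sources used here, so overlapping genes and near-identical copies are uncertain. Identical rotenone files entered once. Genes were filtered with filterByExpr and tested with edgeR 4.0.16 (TMM scaling, robust quasi-likelihood F test, 2 residual degrees of freedom, R 4.3.3), with Benjamini-Hochberg adjustment over 14709 genes and a threshold of 0.05; SE is the log2 fold change divided by the square root of F. At these depths a count of 0 allows up to 0.103 to 0.139 CPM (3 counts; counting error only). limma 3.58.1 (voom), DESeq2 1.42.0 and other scalings, filters, spreads and left-out libraries were alternatives. The members and lists were chosen with earlier results of these data known, and each list was described by its counts and its median, with no set test. In each list up to 4 genes called with the largest change were named, except 1 that is not reported here; Dele1, Aimp2, Ankrd61, Eif2s3x, Eif2s3y, Eif2b4 and Dnajc3 were named after their values were seen. Positions and lengths are from GENCODE M21 on GRCm38, the same build as mm10; 24919 of 26214 symbols had a length.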

Additional observations from a re-analysis of the deposited data

How the results depend on the processing

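No paired analysis was possible because the 3 rotenone files are 1 library, which leaves no replicate numbers to pair. With a coefficient of variation of 20%, 1408 genes were called higher and 2063 lower, and with a test against 1.5-fold 1203 and 1731. Under each of these 2 settings 1 member was called higher and 1 lower, and Eif2ak1 (-0.35), Eif2ak3 (-0.61) and Eif2s1 (0.50) kept their direction without passing. Library size scaling, which moved the median of all genes from -0.04 to -0.16, turned Eif2ak4 to -0.12, Ppp1r15b to -0.0049 and Eif2b5 to -0.0915, none of them called, and Oma1 passed at -0.67. Upper-quartile scaling gave -0.0394 for Eif2ak4, -0.0144 for Eif2b5 and -0.60 for Oma1, which passed. Without a filter Eif2ak4 was at -0.000465. Leaving out DMSO libraries in turn gave -0.0359 to 0.0414 for Eif2ak4 and 0.0861 to 0.17 for Ppp1r15b, which passed without replicate 1. Relative to genes of like transcript length, Eif2ak1 was at -0.25, Eif2ak2 at -0.84, Eif2ak4 at 0.22, Ppp1r15b at 0.335 and Eif2b5 at -0.0027, beyond 1 SD of the DMSO libraries from their uncorrected values. The cause of these shifts was not tested. Ppp1r15a and Eif2ak2 kept their direction and their call under every alternative with a test. Adding 0.5 counts to each gene left the log2 ratio of Ppp1r15a to Ppp1r15b within 1 SD. Depth limits Oma1 most, with 83 counts in the rotenone library. A single rotenone library gives no spread of its own, so every p-value assumes that rotenone libraries vary like the DMSO libraries.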
